A study of Mus musculus with 24 samples.

Results

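The proteasome genes were followed through the early stages of thymocyte development in thymi with and without a TLX1 transgene. They were taken by symbol: every gene on the array named Psma, Psmb, Psmc, Psmd or Psme with a number, without the immunoproteasome subunits Psmb8 and Psmb9. This gave 42 genes of the 18193 that had a probe set of their own, each read from its probe set with the highest mean signal over all 24 arrays. Of the 42, 41 passed the filter on low signal and 1, Psmb11, did not. Psme2 was not read, because its 1 probe set is shared with Psme2b. Psmc3ip and Psme3ip1 match the symbols but encode no proteasome subunit, so 40 members were proteasome proteins or their dedicated assembly factors.

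The arrays (Affymetrix Mouse430_2) measured sorted thymocytes, CD4 and CD8 negative per the labels (the methods name CD44 and CD25 as the basis of the sort), of mice that all carried the Prkdc Scid/Scid mutation, which disables the DNA repair kinase DNA-PK and so stops antigen receptor gene rearrangement. Control pools were Prkdc Scid/Scid. TLX1 pools were IgHμ-TLX1Tg Prkdc Scid/Scid, in which the IgHμ promoter and enhancer, whose main activity is in B cells, drive the homeobox gene TLX1. Per the labels all mice were on the outbred ICR background and 6 to 8 weeks of age; the methods give an age range that starts lower and a TLX1 line kept on the CD1 background before the cross. There were 4 pools of 2 to 5 mice for each genotype, TLX1 pools 1 and 4 and control pools 2 and 4 female and the others male. Each pool was sorted for B220 and CD3 negative cells into DN1 (CD44+CD25-), DN2 (CD44+CD25+) and DN3 (CD44-CD25+), with 1 array per stage.

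The proteasome is the cell's main machine for degrading ubiquitin-tagged proteins. Its 20S core is a barrel of outer alpha rings, which form the gate, and inner beta rings, which hold the cutting sites. The 19S particle caps the barrel: an ATPase ring (the Psmc genes) unfolds the substrate, and the non-ATPase subunits (most Psmd genes) bind and remove ubiquitin. Other caps, the activators encoded by the Psme genes, open the core without ubiquitin. Lymphoid cells can exchange the constitutive cutting subunits Psmb5, Psmb6 and Psmb7 for the immune forms Psmb8, Psmb9 and Psmb10, and cortical thymic epithelium carries a further form, Psmb11. Thymocytes of normal mice divide strongly around DN2 and DN3, whereas the paper places a developmental arrest at DN3 in Prkdc Scid/Scid mice. Cells that grow and divide rely on the proteasome to remove cell cycle proteins.

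DN1 libraries held signal of other cells than DN2 and DN3 libraries. The summed signal of 9 myeloid markers was 13543 to 48399 at DN1 and 1083 to 1746 at DN2, and that of 5 NK cell markers read was 11502 to 26396 at DN1 and 4234 to 5647 at DN2. Both sums were lower at DN2 in all 8 pools, as was that of 5 dendritic cell markers (2804 to 8106 against 391 to 831). The 7 sort and thymocyte markers summed to 6626 to 13466 at DN1, 11049.9 to 16430 at DN2 and 14498 to 20334 at DN3. Of the 7, 6 were higher at DN2 than at DN1 in the median. Cd44 was lower, with medians of 1572 at DN1, 114 at DN2 and 15.5 at DN3. The sum of 5 B lineage markers was 117 to 505 over all arrays. The DN1 libraries of control pool 3 and TLX1 pool 2 stood apart: 3 markers of CD4 CD8 double-positive thymocytes summed to 3934 and 3654 there, against 149.7 to 532 in the other 6 DN1 libraries. Their sums of 9 dividing cell markers, 24378 and 22474, were also the highest at DN1. Cd8a signals were 1919.5 and 1789 and Cd8b1 signals 1909 and 1766 in these libraries, against 67.8 to 282 for both genes in the other 6, which is at odds with a CD4 and CD8 negative label. Cd4 signals were 105 and 99.4 there, against 4.70 to 15.5 in the other 6, so most of the sum was Cd8a and Cd8b1. In the paper's list of cohorts, these pools have the largest shares of thymocytes outside DN1, DN2 and DN3. Member calls over both genotypes that differ without these pools are given beside the results. The part of these cells in the stage differences was not tested, and in sorted bulk samples fewer cells of a type and less RNA per cell cannot be told apart.

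From DN1 to DN2 the proteasome genes were mostly higher. Of the 41 members tested within pools, 25 were higher at an adjusted p under 0.05, 1 was lower and 15 did not pass, where 28.5% of all 27022 probe sets tested were higher and 31.2% lower (59.7% called). The fitted difference was above 0 in 35 members, with a median of 0.21 on the log2 scale against -0.058 over all probe sets. The members are bright, and bright probe sets as a class rose: among the 2081 probe sets with a mean log2 signal between the members' quartiles, 50.1% were higher and the median was 0.18. In control pools the mean log2 signal of the 41 members went from 9.92 ± 0.098 (SD, n = 4) over 10.17 ± 0.054 to 10.07 ± 0.074 through the 3 stages, and in TLX1 pools from 9.88 ± 0.083 over 10.23 ± 0.056 to 10.07 ± 0.090. These means include Psma8, which passed the filter through DN2 and DN3 and had a DN1 signal of 0.472 in control pool 3. Separation of DN1 from DN2 is therefore not read from them.

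The counts depended on the scaling. Centring each array on its median added 0.34 to every difference: it gave 39 members higher and 0 lower, with 47.1% of all probe sets higher, and left the members' median 0.27 above that of all probe sets, as before. Quantile normalization gave 21 members higher and 2 lower, with 34.5% of all probe sets higher, and that distance was 0.086. The median of all probe sets was -0.058 in the reported fit, 0.29 after centring and 0.094 after quantile normalization. Without control pool 3 and TLX1 pool 2 together, 26 members were higher and 3 lower, with 30.3% of all probe sets higher. There Psmb3 (-0.35, adjusted p = 0.00809) and Psme1 (-0.17, adjusted p = 0.0459) became calls lower, Psmc5 (0.19) and Psmd13 (0.32) calls higher, and Psmb1 (0.10, adjusted p = 0.193) lost its call. A 3'/5' index of RNA quality, taken from control probe sets, was higher at DN2 than at DN1 in 6 of 8 pools (mean change 0.21). With the index in the fit 26 members were higher, as were 29.4% of all probe sets. The summed signals of dividing cell markers (9 of 9 higher in the median) and of 5 mast cell markers (528 to 1641 at DN1 and 1219 to 2192 at DN2, with Cpa3 alone of the 5 higher in the median) were higher at DN2 than at DN1 in 7 of 8 pools each, and their part in the result was not tested.

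**Figure D1:**
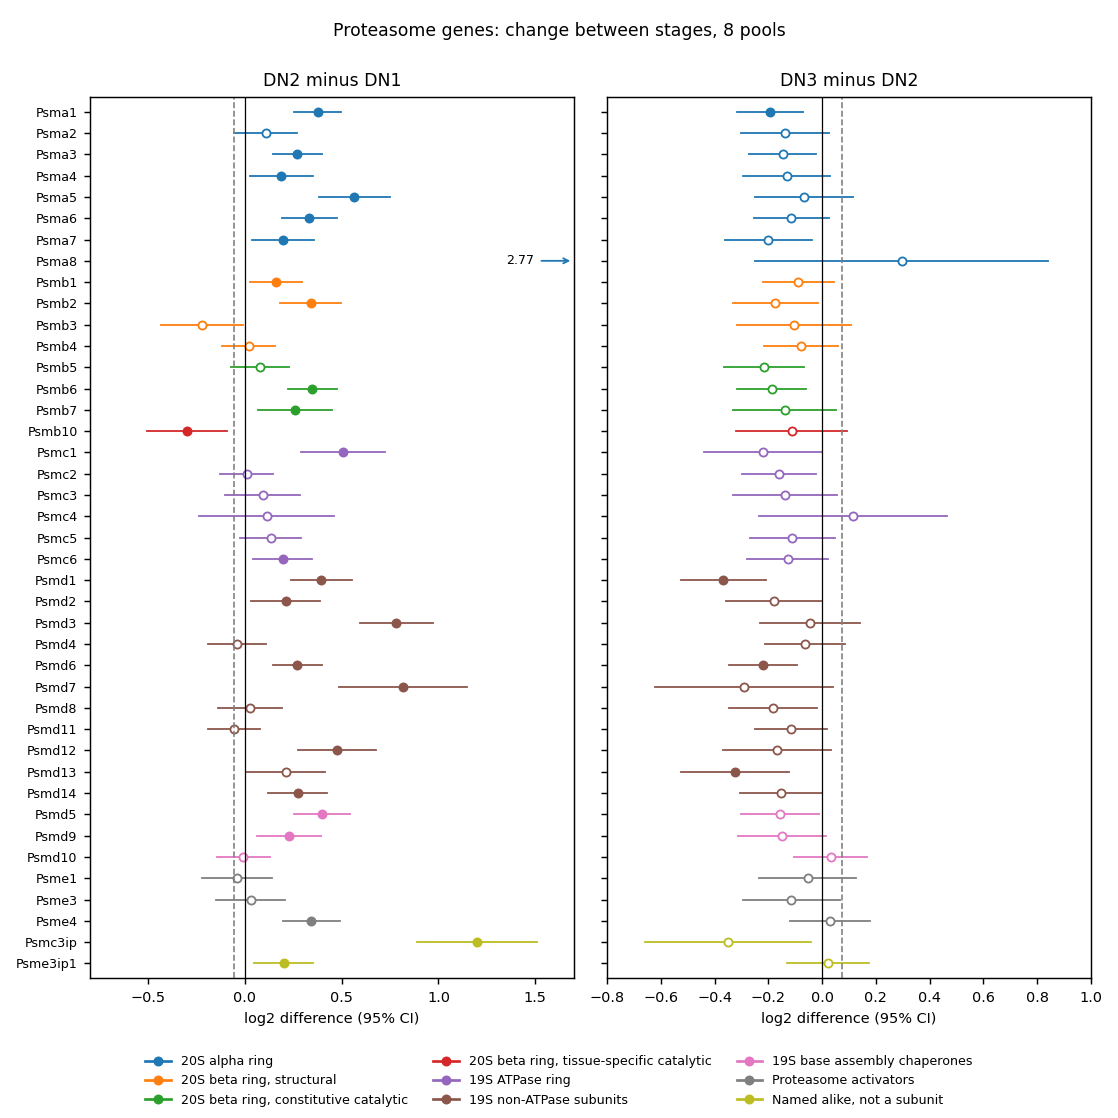
Log2 difference with its 95% confidence interval for each of the 41 tested members (rows, coloured by subcomplex), from DN1 to DN2 on the left and from DN2 to DN3 on the right, 8 pools, fitted within pools. Filled points passed an adjusted p under 0.05, the dashed line is the median of all 27022 probe sets, the panels have different ranges, and Psma8, dim at DN1, lies beyond the left one. Most points lie right of 0 on the left (35 of 41) and left of 0 on the right (36 of 41).

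The upstream sequences of 35 of the 42 members were in the RefSeq table used (mouse build GRCm38.p6), and the 250 bases before the start were searched on both strands for elements known from proteasome promoters. The palindromic element of nuclear respiratory factors was present in 6 of 38 member promoters (15.8%) and in 3.74% of all 32851 promoters of the same length, with no adjustment for base composition. The 6 genes were Psma2, Psma3, Psma4, Psmc4, Psmc5 and Psmd14, of which Psma3, Psma4 and Psmd14 were higher at DN2. Over all tested members 25 of 41 were higher, as were 50.1% of probe sets of like brightness. A link of the element to the rise was not tested. The antioxidant response element core, TGANNNNGC, which binds the proteasome's own inducer Nfe2l1, was in 39.5% of member promoters and 35.2% of all, and the CCAAT box in 39.5% and 33.8%. The interferon-stimulated response element was in 7.89% and 2.98%, and the TATA box, TATAAA, in 7.89% and 12.4%. The searched letters of these elements do not overlap in the sequences shown. The sequences of Psma3 (chr12:70974373-70974622, + strand), Psma4 (chr9:54950609-54950858, + strand) and Psmd14 (chr2:61711444-61711693, + strand) are shown because they hold that element and rose, and that of Psmd12 (chr11:107479278-107479527, + strand) because it rose with an antioxidant response element core close to the start; capitals mark every searched element, on either strand.
Psma3: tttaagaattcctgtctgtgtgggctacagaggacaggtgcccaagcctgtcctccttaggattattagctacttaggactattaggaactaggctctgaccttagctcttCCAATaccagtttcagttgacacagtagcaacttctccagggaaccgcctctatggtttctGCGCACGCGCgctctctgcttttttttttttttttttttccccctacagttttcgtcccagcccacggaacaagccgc
Psma4: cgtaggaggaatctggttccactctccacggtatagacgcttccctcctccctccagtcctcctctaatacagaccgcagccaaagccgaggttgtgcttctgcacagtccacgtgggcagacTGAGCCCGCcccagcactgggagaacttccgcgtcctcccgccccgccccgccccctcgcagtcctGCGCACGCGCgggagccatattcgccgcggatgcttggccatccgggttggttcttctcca
Psmd14: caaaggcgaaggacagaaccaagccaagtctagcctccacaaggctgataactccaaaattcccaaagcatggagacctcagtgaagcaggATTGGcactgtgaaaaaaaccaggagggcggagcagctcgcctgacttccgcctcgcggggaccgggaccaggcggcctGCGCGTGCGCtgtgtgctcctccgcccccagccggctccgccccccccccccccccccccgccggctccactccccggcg
Psmd12: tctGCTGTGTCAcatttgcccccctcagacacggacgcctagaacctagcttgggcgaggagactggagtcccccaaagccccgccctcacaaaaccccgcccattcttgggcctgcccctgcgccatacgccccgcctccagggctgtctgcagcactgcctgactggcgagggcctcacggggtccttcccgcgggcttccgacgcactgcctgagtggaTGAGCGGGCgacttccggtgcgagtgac
These are matches of letters and not measured binding.

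In the alpha ring, which gates the core, most genes rose. Of its 8 genes, 7 were higher at DN2 than at DN1 and Psma2 did not pass (0.11 ± 0.076 SE, adjusted p = 0.239). Of all probe sets 28.5% were higher, and of those of like brightness 50.1%. The 7 include Psma8, whose call was bound to the filter on low signal, as described below. Psma5 signals were 1309 to 2078 (median 1669) at DN1, 2005 to 3077 (median 2482) at DN2 and 2002 to 3024 (median 2322) at DN3. The gene was higher in all 8 pools, by 0.57 ± 0.085 SE (adjusted p = 4.89e-05), and DN1 and DN2 overlapped only through control pool 3, whose DN1 signal of 2078 exceeded the DN2 signal of TLX1 pool 3, 2005. Psma1 and Psma3 were also higher in all 8 pools, by 0.38 and 0.27. Psma6 was higher by 0.33, Psma7 by 0.20 and Psma4 by 0.19. For Psma5 and Psma6 the second brightest probe set gave the same call (0.65 and 0.37), while the dim further probe sets of Psma1, Psma3, Psma5 and Psma6 (mean signal 15.7 to 159.96) lay between -0.61 and 0.074.

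Psma8 encodes the alpha subunit of the testis proteasome, the spermatocyte counterpart of Psma7. In control pools 1 to 4 its DN1 signals were 5.62, 12.3, 0.472 and 7.53, its DN2 signals 49.6, 44.1, 24.8 and 27.1 and its DN3 signals 63.6, 62.6, 26.4 and 40.5. In TLX1 pools 1 to 4 they were 6.61, 6.68, 5.76 and 15.0, then 37.0, 60.8, 45.9 and 61.1, then 50.8, 63.2, 37.6 and 93.2. Every DN2 and DN3 signal was above every DN1 signal. All 8 DN1 signals were under the median signal of their own array (18.8 to 24.3), so the gene passed the filter through DN2 and DN3, and its call among the 25 higher was bound to that. The size of the difference was set by how low signals were treated, 2.77 on the log2 scale with signals under 1 set to 1 and 0.93 with 32 added to every signal, so no fold is given.

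The beta ring was mixed. Among the constitutive cutting subunits, Psmb6 (caspase-like site) was higher at DN2 in all 8 pools: its signals were 1157 to 1694 (median 1435) at DN1, 1639 to 1952 (median 1693) at DN2 and 1372 to 1815 (median 1522) at DN3, a difference of 0.35 ± 0.060 SE (adjusted p = 1.66e-04). Psmb7 (trypsin-like site) was higher by 0.26 ± 0.089 SE (adjusted p = 0.0212), a call lost without control pool 1 or 2 or TLX1 pool 1 or 3, one at a time (0.19 to 0.25), and with pool as a random block or no block (adjusted p = 0.623 and 0.793). Psmb5 (chymotrypsin-like site) was 1234 to 1524 (median 1437) at DN1, 1348 to 1644 (median 1477) at DN2 and 1098 to 1689 (median 1234) at DN3, which overlap, and its difference of 0.077 ± 0.069 SE did not pass (adjusted p = 0.358); it was -0.0080 after quantile normalization. Of the structural subunits, Psmb2 (0.34) and Psmb1 (0.16) were higher, and Psmb4 (0.020) and Psmb3 (-0.22, adjusted p = 0.0658) did not pass. Both bright probe sets of Psmb3 gave a value near that, -0.22 and -0.20. Psmb3 became a call lower in 6 alternatives (quantile normalization, the filter at 40%, an offset of 32, the median of probe sets, the index, and without control pool 3 and TLX1 pool 2; -0.38 to -0.21, adjusted p = 0.00396 to 0.0490) and without control pool 3 (-0.32, adjusted p = 0.00651). Relative to the median of all probe sets it was -0.17, also after centring, whose shift brought the value itself to 0.12.

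Psmb10, the immune counterpart of Psmb7, was the 1 member lower at DN2. In control pools 1 to 4 its signals were 1902, 2087, 1179 and 2284 at DN1 and 1404, 1321, 1290.3 and 1559 at DN2, and in TLX1 pools 1615, 1285, 1885 and 1920.0 at DN1 and 1292, 1404, 1338 and 1670.4 at DN2. It was lower in 6 of 8 pools, and the exceptions were control pool 3 and TLX1 pool 2, the pools with double-positive markers at DN1. The difference was -0.30 ± 0.096 SE (adjusted p = 0.0145), and relative to the median of all probe sets it was -0.24. Centring kept that distance, and its shift brought the value itself to 0.043. The call was lost without control pool 4 (-0.27, adjusted p = 0.0531) or TLX1 pool 3 (-0.26, adjusted p = 0.0562). The excluded immune subunits went the other way, Psmb8 by 0.29 (adjusted p = 0.00144) and Psmb9 by 0.39 (adjusted p = 2.13e-04). Psmb11, the subunit of cortical thymic epithelium, had signals of 0.935 to 11.1 over all arrays and was not tested, while the summed signal of 6 thymic epithelial markers was higher at DN2 than at DN1 in all 8 pools (140.4 to 230.0 against 517 to 808). Epcam made that rise (median 90.2 and 593), with the dim Cldn4 (5.90 and 19.9), and the medians of Foxn1, Krt5, Krt8 and Prss16 were lower at DN2 (5.73 to 15.6) than at DN1 (11.8 to 31.2).

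**Figure D2:**
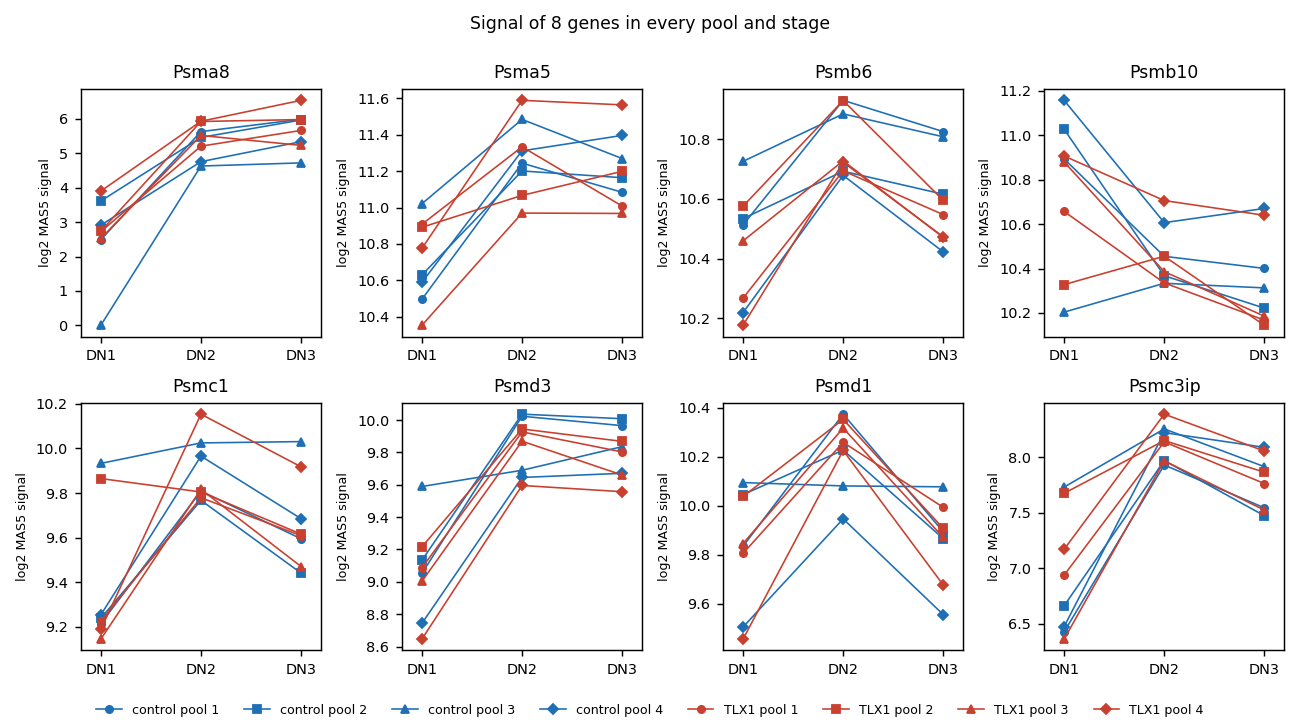
Log2 MAS5 signal (signals under 1 set to 1) of 8 genes at DN1, DN2 and DN3, 1 line per pool, with control pools in blue, TLX1 pools in red, and each panel on its own range. The lines of Psma8, Psma5, Psmb6, Psmd3 and Psmc3ip rise from DN1 to DN2 in all 8 pools, and those of Psmb10 fall in 6 of 8, all but control pool 3 and TLX1 pool 2.

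In the ATPase ring, which unfolds substrates and threads them into the core, all 6 differences were above 0 but only Psmc1 and Psmc6 passed. Higher at this step were 28.5% of all probe sets and 50.1% of those of like brightness. Psmc1 signals at DN1 were 594, 604, 978 and 611 in control pools 1 to 4 and 599, 933, 566 and 584 in TLX1 pools, and at DN2 897, 872, 1042 and 1000.0 and 879, 895, 902 and 1139. Control pool 3 and TLX1 pool 2 alone were already near the DN2 level at DN1, and the difference over all pools was 0.51 ± 0.10 SE (adjusted p = 6.21e-04). Psmc6 was higher by 0.19 ± 0.071 SE (adjusted p = 0.0275). Psmc2, Psmc3, Psmc4 and Psmc5 had differences of 0.0083, 0.091, 0.11 and 0.13, with intervals that held 0. On its second probe set Psmc4 was higher, by 0.32 (adjusted p = 0.0211).

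Of the 11 non-ATPase subunits of the 19S particle, 7 were higher, as were 28.5% of all probe sets and 50.1% of those of like brightness. Psmd3, a scaffold subunit of the lid, had signals of 401 to 770.3 (median 537) at DN1, 774 to 1050.1 (median 954) at DN2 and 753 to 1029.8 (median 903) at DN3, rose in all 8 pools and did so by 0.78 ± 0.087 SE (adjusted p = 2.88e-06), a 1.72-fold change. Every DN2 signal was above every DN1 signal. Psmd7, the inactive partner of the deubiquitinase Psmd14, was higher by 0.82 ± 0.16 SE (adjusted p = 3.82e-04), with control pool 3 as the exception (471 at DN1 and 353 at DN2). Psmd12, another lid scaffold, was higher by 0.48. In it too the DN1 signals of control pool 3 (1158) and TLX1 pool 2 (1027) were the highest at that stage, the other 6 lying at 694 to 804. Psmd1, the base subunit on which a ubiquitin receptor docks, was higher by 0.40, and Psmd14, which removes ubiquitin chains, by 0.27. Psmd6 was higher by 0.27 and Psmd2 by 0.21, while a second bright probe set of Psmd6 did not pass (0.093, adjusted p = 0.376). The ubiquitin receptor Psmd4 (-0.042), Psmd8 (0.025), Psmd11 (-0.055) and Psmd13 (0.21, adjusted p = 0.0630) did not pass. A second bright probe set of Psmd11 gave 0.41 (adjusted p = 8.65e-05), against -0.055 on the probe set used, which lay 0.0026 from the median of all probe sets (0.29 after the shift of centring).

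The base assembly chaperones Psmd5 (0.40) and Psmd9 (0.23) were higher and Psmd10, also known as gankyrin (-0.0076), did not pass. Of the activators, Psme4 (PA200) was higher, with signals of 493 to 713 (median 653) at DN1 and 676 to 962 (median 824) at DN2 and a difference of 0.34 ± 0.069 SE (adjusted p = 6.15e-04). Psme1, the interferon-inducible PA28 alpha, was 2813 to 4660.3 (median 4069.8) at DN1 and 3482 to 4074 (median 3863) at DN2. Its difference of -0.042 ± 0.084 SE did not pass, and neither did that of the nuclear activator Psme3 (0.030). Psme1 lay 0.016 above the median of all probe sets, was 0.0084 without control pool 2 and became a call lower without control pool 3 and TLX1 pool 2 (-0.17, adjusted p = 0.0459), and the shift of centring brought it to 0.30. Psme3 was -0.020 without control pool 3 and -0.11 on its second probe set. The genes that only share the name rose too. Psmc3ip, the meiotic recombination factor HOP2, had signals of 82.2 to 213 (median 112) at DN1, 244 to 335 (median 283) at DN2 and 178 to 273 (median 225) at DN3 and was higher in all 8 pools by 1.20 ± 0.14 SE (adjusted p = 5.98e-06), on its second probe set by 1.29. Psme3ip1, an interactor of Psme3, was higher by 0.20 ± 0.071 SE, a call lost without any 1 of control pools 1, 2 and 4 and TLX1 pools 1 and 3 (0.17 to 0.20).

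From DN2 to DN3 few members changed, and most differences lay below 0. The difference was below 0 in 36 of 41, with a median of -0.14 against 0.075 over all probe sets and -0.053 among those of like brightness. In the test 4 were lower and 0 higher, where 4.07% of all probe sets were lower and 6.93% higher (11% called) and 8.46% of those of like brightness were lower. At an unadjusted p under 0.05 there were 16 members (39%), against 28.9% of all probe sets. Psmd1 signals were 986 to 1326 (median 1211) at DN2 and 752 to 1079.8 (median 943) at DN3. The signal was lower in all 8 pools, by least in control pool 3 (1083 and 1079.8), and the difference was -0.37 ± 0.074 SE (adjusted p = 0.00713). Without both pools numbered 4 and without the pool block it did not pass (adjusted p up to 0.0759). The lid subunit Psmd13 (a difference of -0.33 ± 0.094 SE, adjusted p = 0.0404) was lower in 7 of 8 pools, and Psmd6 (-0.22 ± 0.059 SE, adjusted p = 0.0297) and the alpha subunit Psma1 (-0.19 ± 0.057 SE, adjusted p = 0.0435) were lower in all 8. Neither the second bright probe set of Psmd6 (-0.0043, adjusted p = 0.979) nor the second probe set of Psmd13 (-0.19, adjusted p = 0.145) passed. The calls of Psmd6 and Psmd13 lay near the threshold and their sizes moved little with 1 pool left out: Psmd6 lost its call without any 1 of control pools 1, 2 and 4 and TLX1 pools 1, 2 and 3 (-0.22 to -0.21), and Psmd13 without any 1 pool but control pool 3 (-0.35 to -0.28). The number of members lower was 1 or 2 without any 1 pool but control pool 3 and 11 without control pool 3, and it was 12 without control pool 3 and TLX1 pool 2 together and 0 without both pools numbered 4. Without control pool 3 and TLX1 pool 2 the further members lower were Psma7, Psmb5, Psmc1, Psmc3ip, Psmd2, Psmd8, Psmd9 and Psmd12 (-0.36 to -0.21). The catalytic subunits Psmb5 (-0.22 ± 0.069 SE, adjusted p = 0.0604) and Psmb6 (-0.19 ± 0.060 SE, adjusted p = 0.0587) did not pass and became calls lower without control pool 3 (-0.28, adjusted p = 0.00985, and -0.20, adjusted p = 0.0475). Median centring, which added -0.15 to every difference, gave 13 members lower and quantile normalization 2. The summed signals of dividing cell, dendritic cell, NK cell and mast cell markers were also lower at DN3 than at DN2 in all 8 pools and that of myeloid markers in 7. In the median, 9 of 9 dividing cell, 5 of 5 dendritic cell, 4 of 5 NK cell and 8 of 9 myeloid markers were lower. The mast cell sum (284 to 602 at DN3) followed Cpa3 (medians 1541 and 335), with 3 of its 5 markers lower and 2 higher. The part of all these markers was not tested.

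Over both steps, from DN1 to DN3, 13 members were higher and 3 lower, where 30.1% of all probe sets were higher and 25% lower (55.1% called), and the median was 0.067. Among probe sets of like brightness 42.2% were higher and 23.8% lower, with a median of 0.13. Besides Psma8, whose DN1 signals were under the array median, Psmc3ip (0.85), Psmd3 (0.74), Psmd7 (0.53), Psma5 (0.50) and Psme4 (0.37) had the largest rises. Psmb10 (-0.41, adjusted p = 0.00201), Psmb3 (-0.33, adjusted p = 0.0116) and Psmd11 (-0.17, adjusted p = 0.0315) were lower. Psmb3 lost its call without TLX1 pool 3 (-0.25) and Psmd11 without any 1 of control pools 1 and 2 and TLX1 pools 1, 2 and 3 (-0.18 to -0.14). Without control pool 3 and TLX1 pool 2, Psmb5 (-0.18), Psmc2 (-0.18) and Psme1 (-0.17) became calls lower and Psmd11 lost its call (-0.17, adjusted p = 0.0503). Median centring, which added 0.19 to every difference, brought Psmd11 to 0.022 and gave 24 members higher and 0 lower, and the other bright probe set of Psmd11 was higher, by 0.21. Without both pools numbered 4, 5 members were higher.

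Within each genotype members were called higher at DN2, and so were probe sets of like brightness. In control pools 14 members were higher and 1, Psmb10, lower (21.9% and 22.8% of all probe sets, 44.7% called), and in TLX1 pools 20 were higher and 0 lower (22.8% and 25.1%, 47.9% called). Among probe sets of like brightness, 38.3% were higher and 18.4% lower in control pools, and 42.6% and 18.3% in TLX1 pools. From DN2 to DN3, 0 members were called in control pools by limma, where 0.485% of all probe sets were higher and 0.788% lower (1.27% called), and 3 had an unadjusted p under 0.05 (7.32%, against 13.8% of all probe sets), and in TLX1 pools 1, Psmd1, was lower and 0 higher (1.18% and 1.85%, 3.04% called). From DN1 to DN3, 6 members were higher and 3 lower in control pools (22.4% and 20.3%, 42.6% called), and 7 higher and 1 lower in TLX1 pools (23.2% and 19.2%, 42.4% called). Among those of like brightness, 33.2% were higher and 18.9% lower in control pools, and 32.7% and 18.4% in TLX1 pools. The counts rested in part on single pools. The 15 calls at DN2 in control pools became 7, 9 and 8 without control pool 1, 2 or 4, the 9 over both steps 5 without control pool 1 or 2, and the 8 over both steps in TLX1 pools 3 and 4 without TLX1 pool 3 or 4. The 1 call at DN3 in TLX1 pools was lost without any 1 pool but control pool 3. Pool by pool, 23 to 35 of 41 members had a higher signal at DN2 than at DN1 in control pools and 34 to 36 in TLX1 pools. The lowest number, 23, was in control pool 3, whose 3'/5' index rose by 0.95 between those arrays. In that pool 19 members had a lower signal at DN3 than at DN2, against 29 to 37 in the other 7. Over all 8 pools, 12 members were higher at DN2 than at DN1 in every pool (17.1% of all probe sets were) and 0 lower in every pool (19.7%). From DN2 to DN3, 8 were lower in every pool (6.75%) and 0 higher in every pool (9.7%), and over both steps 9 were higher in every pool (20.2%) and 0 lower (18.6%).

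Genes that build or serve the proteasome were read beside it. All 5 assembly chaperones of the 20S core were higher at DN2, with a median of 0.44, where 28.5% of all probe sets were higher. Psmg1 signals were 325 to 767 (median 377) at DN1 and 746 to 1036 (median 875) at DN2, a difference of 1.03 (adjusted p = 7.84e-05). Psmg2 was higher by 0.93, Psmg3 by 0.44, Psmg4 by 0.33 and Pomp, which matures the beta ring, by 0.24. Both deubiquitinases that sit on the 19S particle were higher, Uchl5 by 0.98 and Usp14 by 0.57, while Sem1 (0.083) and the inhibitor Psmf1 (-0.0078) did not pass. Nfe2l1, the transcription factor that induces proteasome genes, was lower (-0.26, adjusted p = 0.00432), and Ngly1, which processes it, was higher by 0.37. Nfe2l2 did not pass (-0.060).

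Of 8 genes of the p97 unfoldase and the ubiquitin shuttles, 4 were higher and 1 lower: Rad23b by 0.98, Ubqln2 by 0.31, Ubqln4 by 0.30 and Vcp (p97 itself) by 0.30, against a difference of -0.19 in Ufd1. Beside the counts at this step, 28.5% of all probe sets were higher and 31.2% lower. Among probe sets as bright as the members these shares were 50.1% and 22.8%. Uba6, an enzyme that activates ubiquitin, was higher by 0.38. In antigen processing the directions were split. Besides Psmb8 and Psmb9, the peptide transporter subunit Tap2 was higher by 1.47, while Tapbp (-1.03), the trimming peptidase Erap1 (-0.59) and B2m (-0.28), the light chain of class I MHC, were lower and Tap1 (0.00045) did not pass. The 2 further families read for comparison differed from each other. Of 8 subunits of the CCT chaperonin, which folds actin and tubulin, 7 were higher (median 0.35), and of 42 cytosolic ribosomal protein genes 3 were higher and 1 lower (median -0.025). From DN2 to DN3, 1 CCT gene (Cct8) was lower and Ufd1 was higher among these lists, and no other gene of them was called. At that step 4.07% of all probe sets were lower and 6.93% higher.

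No member passed the test between TLX1 pools and control pools. At each of DN1, DN2 and DN3, 0 of 41 members passed limma's adjusted p, where 0.0037%, 0.0037% and 0.0185% of all probe sets were higher and 0% lower. At an unadjusted p under 0.05 there were 0, 1 and 0 members, against 1.72%, 3.53% and 6.02% of all probe sets. The methods' t-test had 0, 2 and 3 members, against 2.01%, 4.06% and 6.44% of all probe sets, and none after adjustment. The medians were -0.067, 0.045 and -0.038. The pools of the genotypes did not overlap in 0, 1 and 0 members, against 1.25%, 2.75% and 3.89% of all probe sets. The precision was moderate. The 95% interval had a median half-width of 0.43, 0.33 and 0.35 on the log2 scale, and it lay within a 2-fold change for 36, 37 and 37 of 41 members. The exceptions were Psma8, Psmb7, Psmc4 and Psme3 at every stage and Psmc3ip at DN1, whose intervals reach past a 2-fold change.

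Psmd11 at DN2 was the 1 of 41 members, against 2.75% of all probe sets there, whose 4 TLX1 signals (1827, 1745, 1745 and 1621) did not overlap the 4 control signals (1358, 1519, 1066 and 1513). Its difference was 0.36 (95% interval 0.016 to 0.70, adjusted p = 1.00), and it was -0.071 as the median of its probe sets. At DN2 Psma8 differed by 0.53 (interval -0.12 to 1.17) and Psme4 by 0.26 (-0.038 to 0.56). At DN3 Psmd7 differed by 0.40 (-0.038 to 0.83), Psmd13 by -0.36 (-0.79 to 0.077) and Psmd11 by 0.25 (-0.045 to 0.55). None of these passed. At DN1 Psmb3 differed by -0.26, Psmb2 by -0.21 and Psma2 by -0.18, and once the 3'/5' index was added to the fit Psmb3 turned to 0.20 and Psma2 to 0.0044. That index was lower in TLX1 pools at each stage, with means of 0.057 against 0.26 at DN1, 0.22 against 0.52 at DN2 and 0.18 against 0.53 at DN3 (n = 4 pools each, exact two-sided permutation p = 0.0857, 0.0571 and 0.0286, each 0.0857 after adjustment; 0.0286 is the smallest that 4 against 4 allows). The TLX1 effect was also compared between stages: limma called 0 members in each of the 3 pairs of stages (0% of all probe sets), and at an unadjusted p under 0.05 there was 1, Psmd11 between DN1 and DN2 (2.44% of members and 3.6% of all probe sets there).

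**Figure D3:**
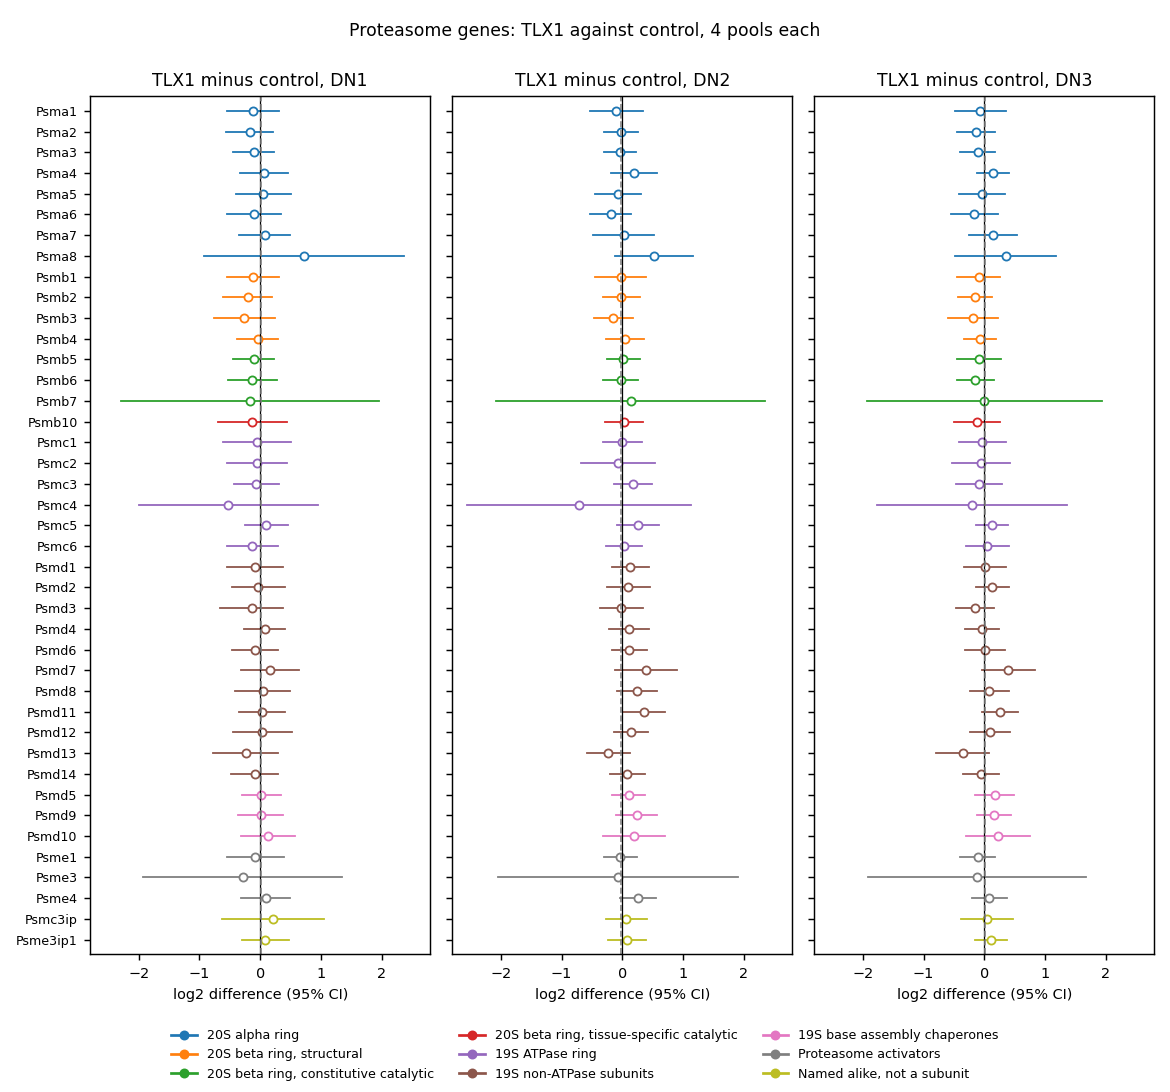
Log2 difference of TLX1 minus control with its 95% confidence interval for the 41 tested members (rows, coloured by subcomplex) at DN1, DN2 and DN3, 4 pools per genotype. No member passed an adjusted p under 0.05, and the widest intervals belong to Psma8, Psmb7, Psmc4 and Psme3.

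Some members differed more between pools than between stages. Psmb7 signals were 237 to 354 on all 6 arrays of the pools numbered 4 (control pool 4 and TLX1 pool 4) and 1979.9 to 2975 on the other 18. Psme3 signals were 53.6 to 79.9 on those 6 arrays and 306 to 514 on the other 18, and on a second probe set 149 to 274 and 183 to 324. Psmc4 went the other way, at 1963 to 3039 on the 6 arrays, 1215 to 1504 in control pool 3 and 268 to 728 elsewhere, while its second probe set read 651 to 1156 on the 6 arrays and 553 to 952 on the others. The contrast of Psme3 and Psmc4 was thus clear on 1 probe set and overlapped on the other. Psmd10 was 403 to 543 on the 6 arrays and 245 to 358 on the others. Of all tested probe sets, 1.59% were lower on all 6 arrays and 1.55% higher, and control pool 2 and TLX1 pool 1, which are female as well, were among the other pools. What set the pools numbered 4 apart was not tested. Pool means were over 2-fold apart in 4 of 41 members (Psma8, Psmb7, Psmc4 and Psme3), 9.76%, against 39.2% of all probe sets and 14.3% of those with a mean signal past 500. The same 4 were over 4-fold apart, against 6.06% of all probe sets and 1.85% of those past 500, though Psma8 and Psme3 have mean signals of 35.3 and 299 themselves.

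**Figure D4:**
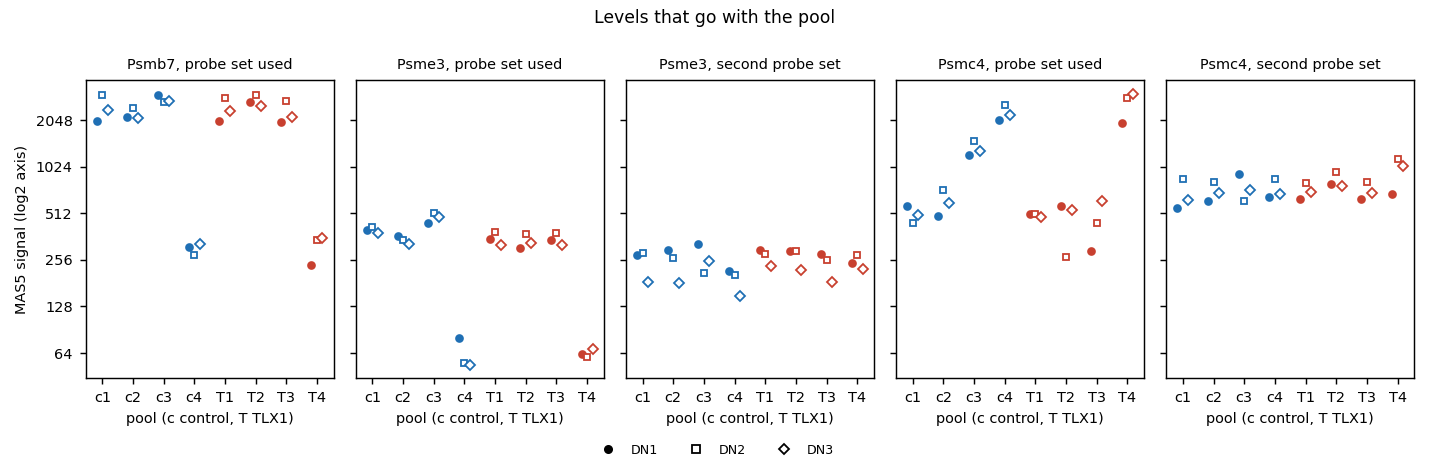
MAS5 signal of Psmb7 and of both probe sets of Psme3 and Psmc4 in the 8 pools (c1 to c4 control, T1 to T4 TLX1), with 1 marker per stage. On the used probe sets Psmb7 (237 to 354) and Psme3 (53.6 to 79.9) are low and Psmc4 (1963 to 3039) is high in both pools numbered 4, while the second probe sets overlap the other pools.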

How the data were processed

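RNA of sorted thymocytes was hybridised to 24 Affymetrix Mouse430_2 arrays. The deposited values are linear MAS5 signal intensities, made by the authors with Affymetrix Expression Console (version not given in the sources used here) and scaled to a 2% trimmed mean of 150 on each array. From these, signals under 1 were set to 1 and log2 was taken. Of 45037 probe sets other than array controls, the 60% with the highest mean log2 signal (27022) were tested with limma 3.58.1 in R 4.3.3, with Benjamini-Hochberg adjustment over all of them.

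Stage differences came from all 24 arrays with pool as a fixed block, and TLX1 differences from the 8 arrays of a stage. Arrays carry no read depth, and their number limits the precision. Pools are separate groups of mice. Full statistics were set for the 3 members with the smallest p in each direction of each stage comparison and in each TLX1 comparison, the catalytic subunits, Psma8, the activators and the symbol matches that are no subunit, and for at most 2 genes per pathway list, by smallest p. Other genes, and the printed promoters, were named after their values were seen. Members and lists were chosen with earlier results of these data known. The 3'/5' index is the log2 ratio of the 3' to the 5' control probe set, averaged over beta-actin and Gapdh. Brightness, scaling, filter, offset, probe set, block and left-out pools were varied, and the code was tested on simulated data.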

Additional observations from a re-analysis of the deposited data

Results flagged for a closer look

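In 19 of 132 groups of 4 pools, over 22 genes, 1 pool lay far from the other 3, where chance sets apart about 5% of such groups. The 3 stages of a pool come from the same mice, so the groups are not independent. A single pool difference, as in Psmb7, is counted more than once. TLX1 pool 4 was the one apart in 11, control pool 4 in 4, control pool 3 in 2 and TLX1 pool 2 in 2.

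Psmb7 was low in control pool 4 at DN1 (311), DN2 (277) and DN3 (322), and in TLX1 pool 4 at DN1 (237), DN2 (343) and DN3 (354). Psme3 was low in control pool 4 at DN1 (79.9) and in TLX1 pool 4 at DN1 (62.7), DN2 (60.1) and DN3 (68.3). At DN3 TLX1 pool 4 was high in Psmc4 (3039), Psmb10 (1595), Psmd7 (734) and Psmd10 (543), and at DN1 in Psma8 (15.0).

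Control pool 3 was low in Psme1 at DN1 (2813, against 4384 to 4660.3 in the other 3) and high in Psmb11 at DN3 (8.57, under the filter). TLX1 pool 2 was high in Psme3ip1 at DN1 (737) and in Psmb6 at DN2 (1951).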

How the results depend on the processing

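The rise at DN2 kept its direction under every alternative run: the number of members higher was 18 to 39 and their median 0.18 to 0.55. Over the same alternatives, 16.2% (no filter) to 47.1% (median centring) of all probe sets were higher. The members' median lay 0.086 (quantile normalization) to 0.36 (no filter) above that of all probe sets. From DN1 to DN2 the share of all probe sets higher was 34.5% with quantile normalization and 30.3% without control pool 3 and TLX1 pool 2. It was 24.1% without both pools numbered 4 and 25.9% to 30.4% with 1 pool left out. The member counts below are otherwise given without such shares, so a change in a count is not read as particular to the members. Of 908 values of the 43 named gene results, 797 kept direction and side of the threshold, 58 lost a call, 27 gained one and 26 changed sign. No TLX1 difference or change of it between stages was called under any alternative (0 each, also with 1 pool left out). The cause of the changes below was not tested.

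Median centring gave 39 members higher and 0 lower from DN1 to DN2, 13 lower from DN2 to DN3, 24 higher and 0 lower from DN1 to DN3, and, of calls in either direction, 28 (control pools) and 38 (TLX1 pools) at the first step, 3 in TLX1 pools at the second and 19 in TLX1 pools over both. Quantile normalization gave 2 lower at the first step, 2 lower at the second (0 in TLX1 pools) and 6 lower over both. Members lower at the first step were 2 with the filter at 40%, an offset of 32, the median of probe sets or the index beside the block, and 0 without a pool block. At the second step, 1 was lower with no filter (0 in TLX1 pools), 7 lower and 1 higher with the median of probe sets, 0 lower without a pool block (0 in TLX1 pools) and 8 lower with the index (2 in TLX1 pools). In control pools the calls without a pool block were 7 at the first step and 5 over both, and 5 over both with no filter.

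Without control pool 3 and TLX1 pool 2, 3 were lower at the first step, 12 at the second (1 called in control pools) and 5 over both, with 14 calls over both steps in control pools and 14 in TLX1 pools. Without both pools numbered 4, an alternative chosen after seeing the data, 0 were lower at the first and 0 at the second step (0 in TLX1 pools), 5 were higher over both, and calls were 7 in control and 12 in TLX1 pools at the first step and 3 in TLX1 pools over both.

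With 1 pool left out, members higher were 17 to 26, 0 to 0 and 10 to 13 at the first step, the second and over both, and lower 0 to 2, 1 to 11 and 1 to 5. Calls in control pools were 7 to 18, 0 to 0 and 5 to 13, and in TLX1 pools 14 to 25, 0 to 2 and 3 to 11. Members lower at the first step were 2 without control pool 3 and 0 without control pool 4 or TLX1 pool 3, and over both steps 5 without control pool 3 and 1 without TLX1 pool 3.

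Signs changed for these values. Median centring adds 0.34 to every difference at the first step, -0.15 at the second and 0.19 over both, so its changes of sign leave each gene's distance from all probe sets as it was: at the first step Psmb10 was 0.043, Psmb3 0.12, Psmd11 0.29 and Psme1 0.30; at the second Psmc4 -0.038, Psmd10 -0.12, Psme4 -0.12 and Psme3ip1 -0.13; and over both Psmd11 0.022. With the median of probe sets, Psmd11 was 0.082 and Psme3 -0.039 at the first step, Psmc4 -0.046 and Psme4 -0.065 at the second, and Psmd11 -0.071 for TLX1 at DN2. Quantile normalization gave Psmb5 -0.0080 at the first and Psme1 0.019 at the second step. Psme3 at the first step was -0.11 on the probe set with the highest mean log2 signal, -0.032 with the index and -0.047 without control pool 3 and TLX1 pool 2. With 1 pool left out it ran from -0.020 (control pool 3) to 0.10 (control pool 4), and Psme1 reached 0.0084 (control pool 2). At the second step Psme4 was -0.00725 without control pool 3 and TLX1 pool 2, and Psme3ip1 ran from -0.0065 (without control pool 3) to 0.045 (without control pool 2) and was -0.00273 without both pools numbered 4. With the index as a covariate, TLX1 against control at DN1 was 0.20 for Psmb3 and 0.0044 for Psma2.

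The labels tie same-numbered pools of the genotypes by their number alone. The deviations of the pools numbered 4 correlated by 0.37 to 0.48, and TLX1 pool 4 matched control pool 4 best at all 3 stages, those numbered 1 correlated by 0.13 to 0.19, and those numbered 2 and 3 by -0.34 to 0.036, so the numbers as a whole were not taken as pairs. With the replicate block in place of the pool, 22 members were higher at the first step and 1 lower at the second, with 0 calls in TLX1 pools there, and 0 TLX1 differences were called. The number of arrays and the array's own background limit the precision, most for Psma8 and Psmb11.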

Other observations

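Of the 42 members, 22 had more than 1 probe set and 20 more than 1 past the filter, and in 10 of those the probe sets differed in sign from DN1 to DN2. Psmd11 had 5 past the filter, with log2 differences from DN1 to DN2 of -0.055, 0.41, 0.081, -0.12 and -0.12, of which the second was called. From DN2 to DN3 the second probe set of Psme3 was lower (-0.35, adjusted p = 0.0230), against -0.11 on the one used.

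From DN1 to DN2 the second probe set of Psmc4 was higher by 0.32 (adjusted p = 0.0211), against 0.11 (adjusted p = 0.575) on the one used. Pool means were further apart than stage means in 30 of 41 members and in 18282 of 27022 probe sets.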
